A study of Mus musculus with 10 samples.

Results

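A set of 9 transcription regulators of lung lineage and lung tumour progression, Nkx2-1, Foxa1, Foxa2, Cebpa, Hnf4a, Sox9, Sox2, Hmga2 and Gata6, was followed through 10 RNA libraries of mouse lung tumours. They were taken by symbol from a count table of 39017 genes, in which each of the 9 symbols stood on 1 row. Tumours arose in C57BL/6 KP mice, whose alleles include floxed copies of Trp53. They were started by an adenovirus whose CC10 promoter drives Cre in club cells, the secretory cells of the bronchioles. The 5 Control libraries came from mice labelled heterozygous for a floxed allele of Slc2a1 (fl/wt), the gene of the glucose transporter Glut1, while the design text speaks of wild-type Glut1 and the study's methods allow both. The 5 Glut1KO libraries came from mice labelled fl/fl. All tumours were collected 20 weeks and 1 day after initiation, dissociated and depleted of CD45-positive cells, so every library is a bulk measurement of the remaining cells, in which fewer cells of a type and less RNA per cell cannot be told apart. By the sex labels the 5 Control libraries and Glut1KO replicates 4 and 5 are male and Glut1KO replicates 1 to 3 female. The library names carry a further number that may stand for the mouse: Control replicates 1, 2 and 5 share a number, as do Control replicates 3 and 4 and Glut1KO replicates 4 and 5. Where such libraries came from 1 animal, the p-values below measure in part the spread between tumours of a mouse.

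Libraries held 35.25 to 49.76 M assigned reads. Alveolar type 2 genes were abundant in all of them, with a summed level of 32000 to 95700 CPM (counts per M reads, scaled by TMM) over a list of 16, and Scgb1a1, which encodes the CC10 protein, lay between 704 and 8730 CPM. The immune marker Ptprc, which encodes CD45, was low in all, at 2.3 to 3.26 CPM in Control and 5.05 to 10.1 CPM in Glut1KO; its groups did not overlap (log2 fold change 1.47, SE 0.25, limma adjusted p = 0.23, DESeq2 adjusted p = 1.96e-06), as held for 0.798% of genes in this direction. Of the 9 immune markers tested 5 were higher and 4 lower in Glut1KO, with a median log2 fold change of 0.24. Those of myeloid cells went both ways: Itgax (1.05, SE 0.34, limma adjusted p = 0.484, DESeq2 adjusted p = 0.0374), Csf1r (0.88, SE 0.28), Adgre1 (0.85, SE 0.36) and Cd68 (0.24, SE 0.18) had higher means in Glut1KO, and Lyz2 (-0.70, SE 0.63), which alveolar type 2 cells express as well, S100a8 (-0.55, SE 0.63) and Mrc1 (-0.26, SE 0.51) lower ones. The part of such cells in the results was not tested. Slc2a1 itself stood at 118, 86.7, 92.6, 103 and 73.2 CPM in Control replicates 1 to 5 and at 60.3, 42.5, 34.6, 92.4 and 103 CPM in Glut1KO replicates 1 to 5. The libraries labelled Glut1KO replicates 4 and 5 therefore lay inside the Control range and went against their label at the RNA level. For that reason the differences of the regulators, of 6 gene lists and of the genes given with a fold change from these lists are shown with all 10 libraries and again for Glut1KO replicates 1 to 3, the female-labelled ones, against Control, from a fit in which replicates 4 and 5 form a group of their own. Those of cell type markers, the dissociation response and chromosomal neighbours are shown with all 10 libraries. Values given below for the female-labelled libraries alone come from the fit with replicates 4 and 5 as a group of their own. For Slc2a1 the log2 fold change was -0.62 (SE 0.29, limma adjusted p = 0.658) with all 10 libraries. For replicates 1 to 3 against Control it was -1.07 (SE 0.20, limma adjusted p = 0.0941).

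In the lung, Nkx2-1 is the homeodomain factor that specifies the epithelium, and its loss in lung adenocarcinoma is known to go with gastric differentiation driven by Foxa1 and Foxa2 together with Hnf4a. Cebpa and Gata6 take part in alveolar maturation. Sox9 marks the distal tip and Sox2 the proximal airway of the developing lung. Hmga2 is a chromatin-bound architectural protein of embryonic tissue that reappears in advanced lung tumours.

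Of these regulators Cebpa was the most abundant and Hmga2 the least. Per length, as transcripts per M (TPM) computed from the counts and exon lengths, Cebpa had a level of 428 ± 78.6 TPM (SD, n = 10), Nkx2-1 of 240 ± 58.4 and Foxa2 of 105 ± 16.7. Foxa1 followed with 91.3 ± 22.4 TPM and Hnf4a with 91.1 ± 36, then Gata6 with 44.6 ± 9.67, Sox2 with 43.5 ± 14.1, Sox9 with 38.2 ± 16.8 and Hmga2 with 11 ± 20.7. The length used was that of all annotated exons together, 6508 bases for Gata6 and 6772 for Hmga2. Their longest coding transcripts hold 3234 and 3810 bases, whereas for Sox9 both lengths are 4135. A shorter length would raise the TPM of Gata6 and Hmga2, and the place of Gata6 rests on the length used. Cebpa stood above Nkx2-1 and Nkx2-1 above Foxa2 in 10 of 10 libraries. The next places were less fixed, since Foxa1 was above Hnf4a in 6 of 10 libraries, Gata6 above Sox2 in 4 of 10 and Sox2 above Sox9 in 6 of 10, differences smaller than the spread between libraries. Hmga2 was the last of the 9 in 9 of 10 libraries, the exception being Control replicate 3.

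**Figure D1:**
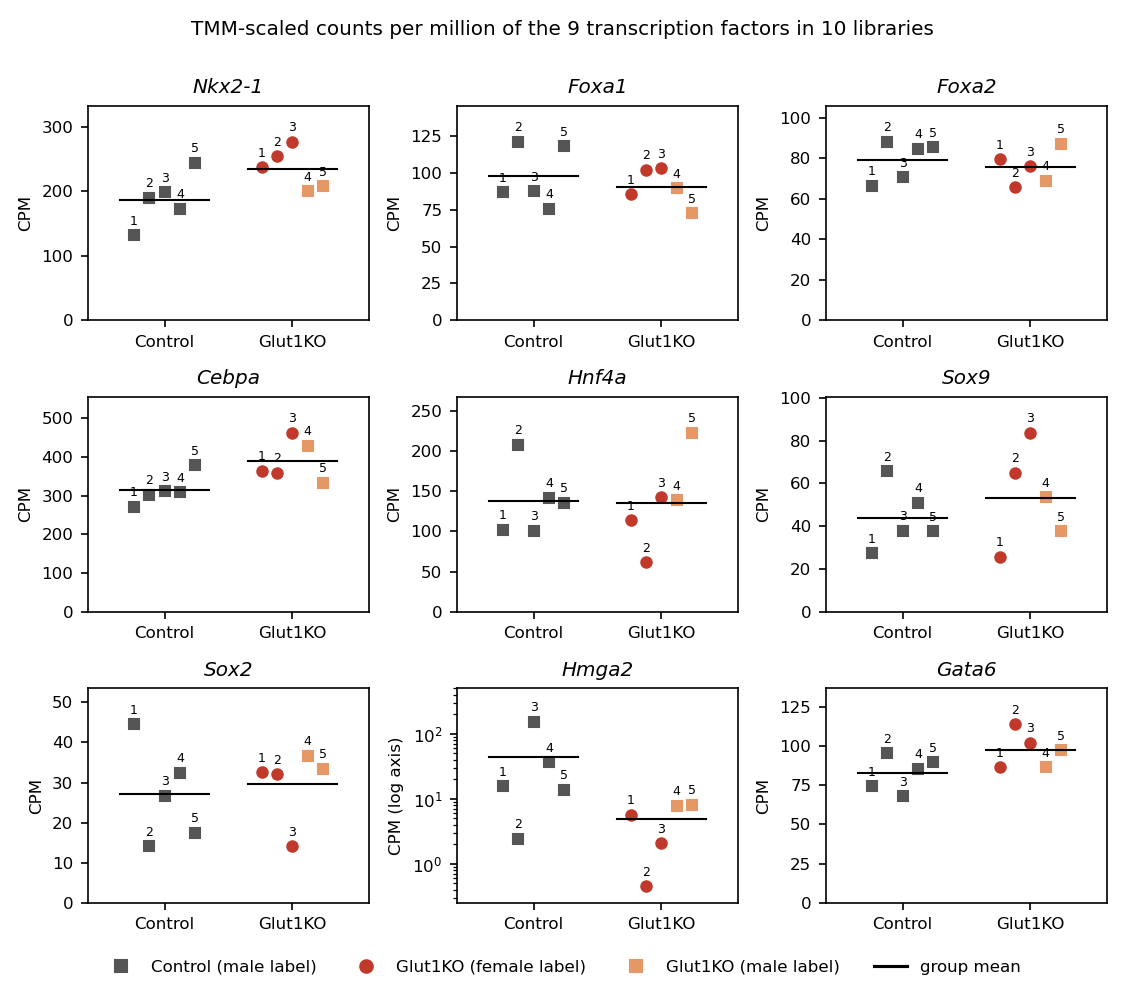
TMM-scaled CPM of the 9 transcription factors (one panel each) in the 5 Control and 5 Glut1KO libraries, numbered by replicate, with the group mean as a black line; the axes start at 0 except for Hmga2, which has a log axis. The groups overlap in every panel, and Hmga2 alone spans from 0.452 to 152 CPM.

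The first question was whether any of the regulators differed between the genotypes. None passed an adjusted p of 0.05 in limma (Benjamini-Hochberg over 15922 genes), where 0 genes of all those tested did (0.0%) while 1223 (7.68%) had an unadjusted p under 0.05, 583 higher (3.66%) and 640 lower (4.02%) in Glut1KO. The quasi-likelihood test of edgeR also called 0 genes (0.0%), and DESeq2 called 215 (1.35%), with 0 of the 9 among them. Of the 9, 5 had a higher mean in the Glut1KO libraries and 4 a lower one, beside 49.3% of all genes higher. The median log2 fold change of the 9 was 0.20, that of all genes -0.0, and with the female-labelled Glut1KO libraries alone these medians were 0.0 and -0.01. None of the 9 had groups that did not overlap, a pattern seen in 295 genes (1.85%; 0.798% higher and 1.06% lower). Cebpa was the 1 member of 9 with an unadjusted p under 0.05.

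When the Glut1KO libraries were split by sex label, which also splits them by Slc2a1 level, 0 of the 9 regulators passed the threshold in either part. Over all genes limma called 11 (0.0691%) for female-labelled Glut1KO against Control, 3 (0.0188%) for male-labelled Glut1KO against Control and 8 (0.0502%) between the parts. Nkx2-1 and Cebpa had an unadjusted p under 0.05 for the female-labelled part, where 14.6% of genes did, and 0 of the 9 did for the male-labelled part (11.1%) or between the parts (18.6%). None of the 9 had all 3 female-labelled libraries above every Control library (4.16% of genes) or below (5.41%), or both male-labelled libraries above (8.54%) or below (8.57%). Sex, Slc2a1 level and name number cannot be told apart in this split.

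**Figure D2:**
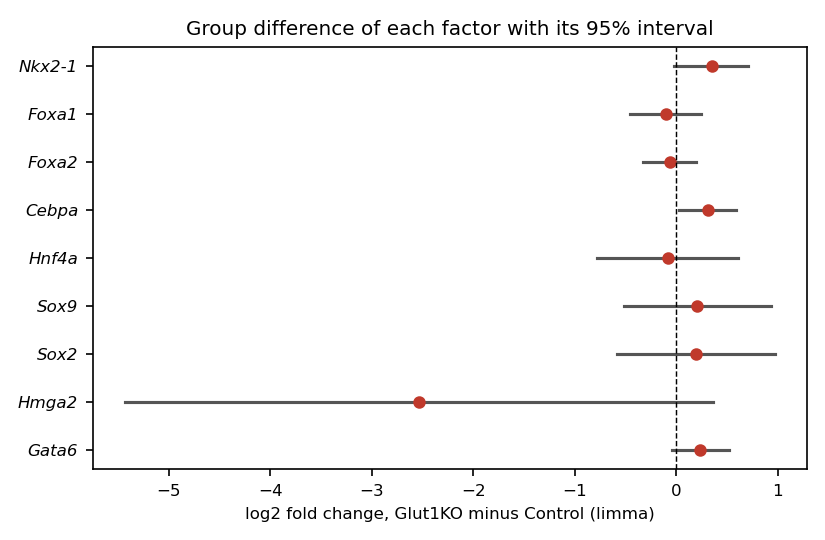
Log2 fold change of each of the 9 factors (Glut1KO minus Control, points) with its 95% interval from limma (lines), in 5 libraries per group. The interval of Cebpa, from 0.03 to 0.59, lies to the right of 0; the other 8 cross 0, and that of Hmga2 is the widest.

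Nkx2-1 (ENSMUSG00000001496, chr12:56531958-56536908 on GRCm38, minus strand) was read at 132, 190, 199, 173 and 244 CPM in Control replicates 1 to 5. In Glut1KO replicates 1 to 5 it stood at 237, 254, 277, 200 and 208 CPM. Of the 5 Control libraries 4 lay below every Glut1KO library, with Control replicate 5 the exception. How many of all genes show such a partial separation, here or for the regulators below, was not counted. The log2 fold change was 0.35 (SE 0.16, 95% interval -0.02 to 0.71), with an adjusted p of 0.667 in limma and p = 0.0635 in an exact 2-sided permutation of the group labels, which can go no lower than 0.00794. With the female-labelled Glut1KO libraries alone, those in which Slc2a1 was low, it was 0.48 (SE 0.18; limma adjusted p = 0.281, unadjusted p = 0.0226). The male-labelled pair gave 0.15 (SE 0.20, adjusted p = 0.818).

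Cebpa (ENSMUSG00000034957, chr7:35119293-35121928, plus strand), a basic leucine zipper factor needed for alveolar type 2 maturation, showed nearly the same arrangement. Its Control values were 272, 303, 311, 309 and 379 CPM. Its Glut1KO values were 365, 360, 463, 429 and 334 CPM, so that again 4 Control libraries lay below every Glut1KO library and replicate 5 did not. The log2 fold change was 0.31 (SE 0.13, 95% interval 0.03 to 0.59), with an adjusted p of 0.616 in limma and an exact permutation p of 0.0317. For the female-labelled Glut1KO libraries against Control it was 0.33 (SE 0.15, limma adjusted p = 0.338).

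Genes of the alveolar type 2 cell that are known to depend on these factors were examined as a list of 16, all of which were tested. In this list 13 had a higher mean in the Glut1KO libraries and 3 a lower one, with a median log2 fold change of 0.21, and 0 passed the threshold. Rab27a, a GTPase of secretory granules, had the smallest p of the list, with 263 CPM in the Control and 339 CPM in the Glut1KO libraries (log2 fold change 0.41, SE 0.18, limma adjusted p = 0.644). Abca3, the lipid transporter of lamellar bodies, had a log2 fold change of 0.39 (SE 0.21, adjusted p = 0.711), and Sftpb, which encodes surfactant protein B, one of 0.36 (SE 0.24, adjusted p = 0.751). With the female-labelled Glut1KO libraries alone, 14 of the 16 were higher, the list median was 0.38, and Rab27a stood at 0.43 (SE 0.22), Abca3 at 0.71 (SE 0.16, adjusted p = 0.146) and Sftpb at 0.06 (SE 0.20). Control replicate 2 was low in much of this list, as seen in 2 genes picked after their values were seen. Napsa, a protease that processes surfactant proteins, read 85.6 CPM there and 344 to 1980 CPM elsewhere, and Lamp3 read 283 CPM there and 462 to 1580 CPM elsewhere. Nkx2-1, at 190 CPM, and Cebpa, at 303 CPM, were not the lowest of their group in that library. The count of 13 higher genes rested in part on Control replicate 2. Without it Sftpc, Lamp3, Napsa, Slc34a2, Lpcat1 and Etv5 turned lower, with log2 fold changes of -0.15 to -0.05, and Hc stood at -0.0. Sftpd, Muc1 and Rab27a stayed higher without it, at 0.03 to 0.33. Sftpb and Abca3 stayed higher whichever library was left out.

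Foxa1 and Foxa2 are forkhead factors that open chromatin in the endoderm and act in part in each other's place. Foxa1 (ENSMUSG00000035451, chr12:57540628-57546916, minus strand) lies 1003.7 kb from Nkx2-1 on the same chromosome, with 5 protein-coding genes between them. It read 86.8, 121, 87.5, 75.6 and 118 CPM in the Control libraries and 85.5, 102, 103, 89.3 and 72.4 CPM in the Glut1KO libraries. The groups lay over each other, with a log2 fold change of -0.10 (SE 0.16, 95% interval -0.45 to 0.25, limma adjusted p = 0.896) and of 0.00 for the female-labelled Glut1KO libraries against Control. Foxa2 (ENSMUSG00000037025, chr2:148042877-148046969, minus strand) was the steadiest of the 9, at 66.5, 88.2, 70.5, 84.7 and 85.3 CPM in Control and 79.4, 65.7, 76.0, 69.0 and 87.2 CPM in Glut1KO. Its largest value was 1.34 times its smallest, and its log2 fold change was -0.06 (SE 0.12, 95% interval -0.33 to 0.20, limma adjusted p = 0.916). For the female-labelled Glut1KO libraries against Control it was -0.10 (SE 0.14). With all libraries it ran from -0.12 to -0.02 when each library was left out.

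Hnf4a (ENSMUSG00000017950, chr2:163506808-163572910, plus strand), the nuclear receptor of liver and gut epithelium, was expressed in all 10 tumours but at uneven levels. The Control libraries held 102, 208, 101, 142 and 136 CPM. The Glut1KO libraries held 114, 61.4, 143, 139 and 223 CPM, so that both the lowest and the highest value came from that group. The means, 138 ± 43.7 CPM in Control and 136 ± 58.3 CPM in Glut1KO (SD, n = 5 each), were near one another (log2 fold change -0.08, SE 0.31, 95% interval -0.78 to 0.61, limma adjusted p = 0.964). The 2 parts of the Glut1KO group lay on either side of Control: the female-labelled libraries averaged 106 CPM (log2 fold change -0.41, SE 0.32, adjusted p = 0.565) and the male-labelled libraries 181 CPM (0.40, SE 0.36, adjusted p = 0.723). The difference between these parts, -0.81 (SE 0.40), had an adjusted p of 0.303.

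Foxa2 and Hnf4a were 1 of the 2 pairs among the 9 that varied together across libraries beyond the threshold, and their promoters are shown for that reason. Hnf4a is known to be read from an upstream promoter, P2, and a downstream one, P1, which the gene-level counts cannot separate. The sequences come from RefSeq (GRCm38.p6) and run from 250 bases before to 50 after a start site, 5′ to 3′ on the gene's strand. Capitals mark matches, on either strand, to the forkhead letters TGTTTNC, the GATA letters AGATAA, the Nkx2-1 letters CTCAAG or the TATA letters TATAAA.
Hnf4a upstream, chr2:163506607-163506906, plus strand: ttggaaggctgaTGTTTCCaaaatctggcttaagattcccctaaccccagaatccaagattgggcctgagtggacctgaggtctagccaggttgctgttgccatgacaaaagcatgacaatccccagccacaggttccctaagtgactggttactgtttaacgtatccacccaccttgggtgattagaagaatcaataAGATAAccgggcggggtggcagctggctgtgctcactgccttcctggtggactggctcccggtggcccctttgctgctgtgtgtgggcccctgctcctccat
Hnf4a downstream, chr2:163546905-163547204, plus strand: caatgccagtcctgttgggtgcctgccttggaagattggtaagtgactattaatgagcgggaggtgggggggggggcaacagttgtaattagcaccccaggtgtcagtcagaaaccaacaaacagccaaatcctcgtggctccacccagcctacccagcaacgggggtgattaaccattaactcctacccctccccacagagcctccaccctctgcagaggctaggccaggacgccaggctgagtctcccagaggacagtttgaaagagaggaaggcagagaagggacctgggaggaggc
Foxa2, the most downstream of its 3 start sites, chr2:148045415-148045714, minus strand: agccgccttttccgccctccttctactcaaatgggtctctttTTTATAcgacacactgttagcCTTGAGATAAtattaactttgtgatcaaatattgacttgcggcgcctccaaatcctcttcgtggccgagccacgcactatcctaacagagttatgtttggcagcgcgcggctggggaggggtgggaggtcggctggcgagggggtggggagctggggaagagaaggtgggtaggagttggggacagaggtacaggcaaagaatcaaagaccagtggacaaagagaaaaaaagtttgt

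The upstream Hnf4a promoter held 1 match to the forkhead letters and 1 to the GATA letters, and the downstream one held none of the letters searched. In the Foxa2 promoter shown, the Nkx2-1 match on the opposite strand overlaps the GATA match. Among 32851 promoters of the same length, the forkhead letters occurred in 20.5%, the GATA letters in 11.2%, the Nkx2-1 letters in 15.9% and the TATA letters in 13.6%. The C/EBP letters TTGCNNAA (10.8%), the Sox letters ACAATG (12.6%) and the Hnf4a letters CAAAGTCCA (0.475%) were searched too and had no match in these 3 promoters. Of the 9 regulators, 7 had a promoter in the table, Sox9 and Gata6 being the others. Among the promoters not printed, that of Foxa1 held a forkhead match, that of Cebpa a TATA match and that of Sox2 a C/EBP match, while those of Nkx2-1 and Hmga2 and the other 2 of Foxa2 held none. A match of letters is a description of the sequence and not a binding site.

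Gata6 (ENSMUSG00000005836, chr18:11052064-11085635, plus strand), a zinc finger factor of the endoderm, read 74.5, 95.4, 67.8, 85.5 and 89.6 CPM in the Control libraries. The Glut1KO libraries read 86.4, 114, 102, 86.5 and 97.2 CPM. In all, 3 Glut1KO libraries lay above every Control library and 3 Control libraries below every Glut1KO library. The log2 fold change was 0.24 (SE 0.13, 95% interval -0.04 to 0.52), with an adjusted p of 0.695 in limma and an exact permutation p of 0.0873. It was 0.29 (SE 0.14, limma adjusted p = 0.378) for the female-labelled Glut1KO libraries against Control.

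A list of 29 gastric, intestinal and hepatic genes, known as targets of Hnf4a or Foxa factors or as marks of lung tumours without Nkx2-1, was taken as the counterpart of the alveolar list. Of the 24 tested, 12 were higher and 12 lower in Glut1KO, with a median log2 fold change of 0.02, and 0 passed the threshold in limma. Tff3, a secreted trefoil peptide of goblet cells, had the smallest p and was carried by few tumours. It read 0.0759, 2.19, 1.19, 14.1 and 70.8 CPM in the Control and 0.365, 0.0238, 0, 0 and 0.362 CPM in the Glut1KO libraries (log2 fold change -5.60, SE 2.13, limma adjusted p = 0.587, DESeq2 adjusted p = 0.00982). Cdh17, an intestinal cadherin, read 3.62, 9.54, 153, 22.2 and 1.78 CPM in Control and 0.268, 0.404, 0.561, 2.58 and 1.74 CPM in Glut1KO (-3.89, SE 1.48, limma adjusted p = 0.591, DESeq2 adjusted p = 0.00239). For Gkn1, a gastrokine of the stomach surface, the difference was -2.47 (SE 1.00, limma adjusted p = 0.615, DESeq2 adjusted p = 0.00982). Pgc, which encodes the gastric protease progastricsin, went the other way, at 2.4, 2.08, 1.98, 2.9 and 2.17 CPM in Control and 8.3, 18.3, 34.4, 1.78 and 1.95 CPM in Glut1KO (1.70, SE 0.86, limma adjusted p = 0.681, DESeq2 adjusted p = 0.0204). The 3 female-labelled libraries stood above the other 7 for Pgc. In the fit of these 3 against Control, 12 genes of the list were higher and 12 lower (median -0.06), with Tff3 at -5.81 (SE 2.81), Cdh17 at -4.82 (SE 2.09), Gkn1 at -1.91 (SE 1.16) and Pgc at 2.94 (SE 0.48, limma adjusted p = 0.0667).

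The libraries that stood out for Hnf4a differed in which of these genes they held, and the following genes were picked after their values were seen. Glut1KO replicate 5, the highest for Hnf4a at 223 CPM, also had the highest Pdx1, a foregut and pancreatic factor, at 28.3 CPM against 0.0723 to 11.3 CPM elsewhere. Control replicate 2, with Hnf4a at 208 CPM, had the highest Alb, which encodes serum albumin, at 481 CPM against 10.7 to 182 CPM elsewhere, and the highest Gkn2 at 660 CPM. Glut1KO replicate 2, the lowest for Hnf4a at 61.4 CPM, held 1380 CPM of Apob, which encodes a lipoprotein of liver and gut and was at 17 to 1270 CPM elsewhere. A high Hnf4a level and a high level of these genes thus met in some tumours and not in others.

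Sox9 (ENSMUSG00000000567, chr11:112782224-112787760, plus strand) and Sox2 (ENSMUSG00000074637, chr3:34650405-34652461, plus strand) mark opposite ends of the airway tree. Sox9 read 27.2, 65.7, 37.9, 50.9 and 37.7 CPM in the Control and 25.7, 65.0, 83.7, 53.6 and 37.6 CPM in the Glut1KO libraries. Its log2 fold change of 0.21 (SE 0.33, 95% interval -0.51 to 0.94, limma adjusted p = 0.894) was smaller than the spread within either group, and it was 0.30 (SE 0.39) for the female-labelled Glut1KO libraries against Control. The difference between the groups was 0.01 without Glut1KO replicate 3 and 0.45 without Glut1KO replicate 1. Sox2 read 44.6, 14.1, 26.7, 32.4 and 17.5 CPM in Control and 32.6, 32.0, 14.1, 36.7 and 33.4 CPM in Glut1KO. Glut1KO replicate 3 lay far below the other 4 Glut1KO libraries, and the log2 fold change was 0.20 (SE 0.35, 95% interval -0.58 to 0.97, limma adjusted p = 0.911) with all libraries and -0.01 (SE 0.40) for the female-labelled Glut1KO libraries against Control. The correlation of Sox9 and Sox2 (r = -0.57, permutation p = 0.0847, adjusted p = 0.436 over 36 pairs) did not pass the threshold. Control replicate 2 and Glut1KO replicate 3 had high Sox9 and the lowest Sox2, while Glut1KO replicates 2 and 4 had Sox9 above 50 CPM together with Sox2 of 32.0 and 36.7 CPM.

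Control replicate 1, which had the most Sox2 and the least Nkx2-1, Cebpa and, among the Control libraries, Sox9, was also the library with basal cell keratin, shown here by genes picked after their values were seen. Krt5 read 346 CPM there and 0 to 0.321 CPM in the other 9 libraries, Trp63, the master factor of basal cells, 90.2 CPM against 0.657 to 12.5 CPM, and Krt14 89.6 CPM against 1.35 to 14.9 CPM. The 5 basal markers summed to 541 CPM in this library and to 4.74 to 24.0 CPM in the others; their part in the Nkx2-1, Cebpa and Sox2 values was not tested. Without this library the log2 fold change of Nkx2-1 was 0.22, that of Cebpa 0.26 and that of Sox2 0.41.

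A list of 17 airway genes, among them club, mucous, basal and neuroendocrine genes linked to Sox2, leaned lower in Glut1KO: 11 of the 13 tested were lower and 2 higher, with a median log2 fold change of -0.67, and 0 passed the threshold in limma. The count of 11 rested in part on single Control libraries. Without Control replicate 3, Bpifb1 stood at 0.62, Scgb3a1 at 0.08 and Uchl1 at 0.04. Bpifa1 was 0.18 without Control replicate 5 and Muc5b 0.09 without Control replicate 1. Scgb1a1, Scgb3a2, Krt15, Gabrp, Cyp2f2 and Trp63 stayed lower whichever library was left out, the last 2 reaching -0.04 and -0.03. Krt15, a keratin of basal-like cells, had the smallest p (3.75 CPM in Control, 0.779 CPM in Glut1KO; log2 fold change -1.87, SE 0.56, limma adjusted p = 0.449, DESeq2 adjusted p = 0.0124). Control replicate 1, the library with the basal keratins, held 10.5 CPM of Krt15 against 1.19 to 2.87 CPM in the other Control libraries; without it the Control mean was 2.07 CPM and the log2 fold change -1.41. It was followed by Scgb3a2, a secretoglobin of club cells (-1.33, SE 0.72, adjusted p = 0.707) and Gabrp, a receptor subunit of secretory cells (-1.80, SE 1.01, adjusted p = 0.718). Against the female-labelled Glut1KO libraries alone, 10 of 13 were lower and the median was -0.30, nearer to 0 than with all libraries, with Krt15 at -2.09 (SE 0.70), Scgb3a2 at -1.13 (SE 0.86) and Gabrp at -1.86 (SE 1.28). Ciliated markers were lower in 10 of 10, with a summed level of 21.2 to 549 CPM in Control and 33.5 to 192 CPM in Glut1KO. The ciliated sum of 549 CPM was that of Control replicate 5, and the other Control libraries held 21.2 to 260 CPM. Without this library the log2 fold change was 0.55 for Sec14l3, -0.10 for Tppp3 and -1.71 for Foxj1. Club markers were lower in 6 of 8, at 2110 to 12300 CPM in Control and 3190 to 9610 CPM in Glut1KO. Endothelial markers were higher in 12 of 12, at 143 to 493 CPM and 241 to 665 CPM. None of these markers passed the threshold in limma, and their part in the airway values was not tested. Chga, which encodes a granule protein of neuroendocrine cells, was near 0 in all libraries, at 0 to 0.427 CPM.

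A list of 16 distal tip and Sox9-linked genes showed no common direction: of 12 tested, 5 were higher and 7 lower (median log2 fold change -0.07), and 0 passed the threshold. The smallest p belonged to Etv4, an ETS factor downstream of FGF signalling, with 61.1 CPM in Control and 41.9 CPM in Glut1KO (-0.53, SE 0.19, limma adjusted p = 0.559). Dusp6, a phosphatase induced by the same pathway, had a log2 fold change of -0.49 (SE 0.21, adjusted p = 0.642) and Bmp4, a growth factor of the distal tip, one of 0.31 (SE 0.16, adjusted p = 0.686). With the female-labelled Glut1KO libraries alone, 7 were higher and 5 lower (median 0.10), and Etv4 was at -0.67 (SE 0.22, adjusted p = 0.242), Dusp6 at -0.74 (SE 0.19, adjusted p = 0.184) and Bmp4 at 0.34 (SE 0.19). The cartilage gene Col2a1, a known target of Sox9 in the skeleton, stayed at 0.0225 to 0.296 CPM in all libraries, and Matn1 was at 0 counts.

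Hmga2 (ENSMUSG00000056758, chr10:120361275-120476469, minus strand) set itself apart by its range. It read 15.6, 2.43, 152, 36.3 and 13.7 CPM in Control replicates 1 to 5 and 5.67, 0.452, 2.07, 7.76 and 8.06 CPM in Glut1KO replicates 1 to 5, from 19 to 6160 counts. For Hmga2, 4 of the 5 Control libraries lay above every Glut1KO library, and Control replicate 2 lay among the Glut1KO values. The highest level was 337 times the lowest, and within the groups the SD of log2 CPM was 1.97, the 237th largest of 15922 genes, whose median was 0.35. The SDs of the other 8 ran from 0.17 for Foxa2 to 0.62 for Sox2.

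The means of Hmga2 were 44.0 ± 61.7 CPM in Control and 4.80 ± 3.41 CPM in Glut1KO (SD, n = 5 each), and the log2 fold change was -2.53 (SE 1.32, 95% interval -5.43 to 0.36). This did not pass the threshold in limma (adjusted p = 0.688) or DESeq2 (adjusted p = 0.0858), and the exact permutation test gave p = 0.0794. With the female-labelled Glut1KO libraries alone the difference was -3.38 (SE 1.78, limma adjusted p = 0.405) and with the male-labelled pair -1.20 (SE 1.59, adjusted p = 0.817). Control replicate 3 alone held 6160 counts of Hmga2, and without it the log2 fold change was -1.78; without Control replicate 2 it was -3.38 and without Glut1KO replicate 2 -1.83. Control replicate 3 was also the highest for Vim, which encodes the intermediate filament of mesenchymal cells, at 514 CPM against 58.5 to 129 CPM elsewhere, and for Cdh17 at 153 CPM; both were named after their values were seen.

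The 3′ untranslated region of Hmga2 is known for its sites for the let-7 microRNAs, which hold the gene down in adult tissue. Small RNAs were not measured here, and the sequences are printed because they set Hmga2 apart from the other 8. All 9 mature let-7 and miR-98 entries of RefSeq share 1 seed, bases 2 to 8, given in capitals in 4 of them.
let-7a-5p: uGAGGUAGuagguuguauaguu
let-7d-5p: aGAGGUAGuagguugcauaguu
let-7g-5p: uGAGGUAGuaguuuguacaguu
miR-98-5p: uGAGGUAGuaaguuguauuguu
The longest coding transcript of Hmga2 in GENCODE M21 holds 4 matches to this seed within the 3014 bases after its stop codon, in capitals in the following windows of 22 bases. They are given with the position of the match after the stop codon.
Site at 58: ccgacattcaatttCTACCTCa
Site at 1295: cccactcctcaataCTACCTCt
Site at 1733: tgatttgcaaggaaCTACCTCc
Site at 2591: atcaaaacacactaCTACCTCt

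The same letters occurred after the stop codon in 0 of the other 8 regulators and in 1854 of 20952 coding genes (8.85%), of which 12 held 4 or more. Hmga2 belongs with a group of oncofetal and mesenchymal genes, several of them let-7 targets, that was examined as a list of 26. Of the 20 tested, 8 were higher and 12 lower in Glut1KO, with a median log2 fold change of -0.25, and 0 passed the threshold in limma. Igf2bp2, an RNA-binding protein whose gene is known as an Hmga2 target, had the smallest p and read 17.2, 10.8, 25.8, 14.4 and 8.61 CPM in Control and 11.3, 3.85, 3.75, 2.88 and 7.04 CPM in Glut1KO. Control replicate 3 was again the highest, and 4 of the 5 Control libraries were above 10 CPM against 1 of the 5 Glut1KO libraries (log2 fold change -1.46, SE 0.41, limma adjusted p = 0.419, DESeq2 adjusted p = 0.0499). Plagl1, a zinc finger factor of imprinted growth control, had a difference of -0.67 (SE 0.31, limma adjusted p = 0.665), and Arid3a, a DNA-binding factor with let-7 matches of its own, one of 0.32 (SE 0.15, adjusted p = 0.668). With the female-labelled Glut1KO libraries alone, 9 were higher and 11 lower (median -0.10), with Igf2bp2 at -1.38 (SE 0.50, adjusted p = 0.271), Plagl1 at -0.72 (SE 0.38) and Arid3a at 0.41 (SE 0.16). The embryonic let-7 antagonists Lin28a and Lin28b were near 0, at no more than 0.0898 and 0.127 CPM, and Igf2bp1 and Igf2bp3 did not pass the filter on low counts.

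The second question was which of the regulators rise and fall together from tumour to tumour. Over the 36 pairs, 2 passed an adjusted p of 0.05 by Pearson's r of log2 CPM in a permutation test over 10 libraries, and 0 by Spearman's rho. Hmga2 was high where Gata6 was low (r = -0.90, permutation p = 0.00059, adjusted p = 0.0212; rho = -0.84, adjusted p = 0.0884). The ends of this relation were Control replicate 3, with the most Hmga2 and the least Gata6, and Glut1KO replicate 2, with the least Hmga2 and the most Gata6; without these 2 libraries r was -0.66 (adjusted p = 0.358). After the group means were taken away r was -0.84 (adjusted p = 0.0605), and with library totals it was -0.88 (adjusted p = 0.04). Averaging the libraries that share a name number to 6 points gave r = -0.96, with an adjusted permutation p of 0.15. With 6 points a lone pair of the 36 cannot fall below an adjusted p of 0.05, so this setting does not test the call. Of the 15 marker and state lists whose summed level was set beside the regulators, erythroid genes, chiefly those of the globins, ran closest to both, with r = 0.73 for Hmga2 and r = -0.77 for Gata6 over the 10 libraries. Their sum was 1460 CPM in Control replicate 3 and 189 CPM in Glut1KO replicate 2, the highest and the lowest, against 226 to 751 CPM in the others, and their part in the relation was not tested.

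Foxa2 and Hnf4a rose together (r = 0.80, permutation p = 0.00232, adjusted p = 0.0418; rho = 0.77, adjusted p = 0.148). Both were highest in Control replicate 2 and Glut1KO replicate 5 and lowest in Glut1KO replicate 2. Without Control replicate 1 and Glut1KO replicate 2, the libraries farthest from the median of Foxa2, r was 0.67 (adjusted p = 0.358). It was 0.80 with the group means taken away (adjusted p = 0.0605), so that the call was lost in each of these settings. Over the 6 averaged points r was 0.85 (adjusted p = 0.548), a setting in which a lone pair could not pass. With CPM scaled by library totals in place of TMM, r was 0.73 and the call was lost as well (adjusted p = 0.144). Nkx2-1 and Cebpa, the alveolar factors, gave r = 0.79 (permutation p = 0.00585, adjusted p = 0.0702) and rho = 0.83, but r fell to 0.52 without Control replicate 1 and Glut1KO replicate 3. With library totals it was 0.85 and passed (adjusted p = 0.0407). Foxa1 and Sox2 gave r = -0.75 (permutation p = 0.015, adjusted p = 0.135). Foxa1 and Foxa2, the related forkhead factors, gave r = 0.06 (permutation p = 0.87, adjusted p = 0.949). The 2 calls did not hold in every fit that left out a library. When each was left out, r of Hmga2 and Gata6 stayed between -0.93 and -0.83. Its adjusted p exceeded 0.05 without Control replicate 2 or 3 or Glut1KO replicate 2 or 3. That of Foxa2 and Hnf4a did so without any library other than Glut1KO replicate 1 or 4 (r from 0.74 to 0.87). A call can also be lost because fewer points remain: without Control replicate 2, r of Hmga2 and Gata6 was -0.90, as with all libraries (adjusted p = 0.0695).

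**Figure D3:**
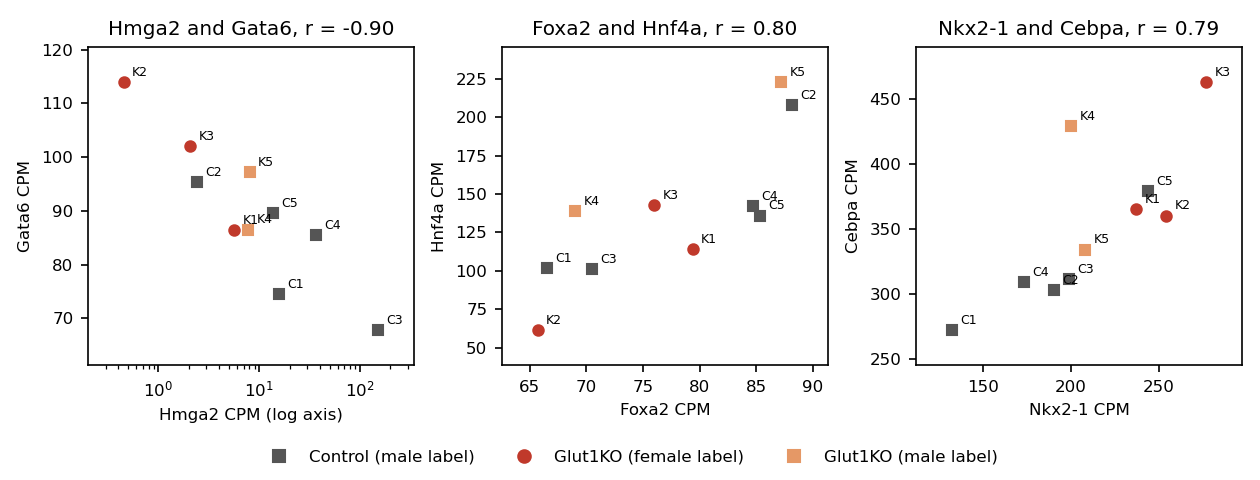
CPM of 3 pairs of factors in the 10 libraries (C, Control; K, Glut1KO; numbered by replicate), with a log axis for Hmga2 and linear axes for the others; r is Pearson's r of log2 CPM. Control replicate 3 and Glut1KO replicate 2 form the ends of the Hmga2 and Gata6 relation, and Control replicate 1 lies lowest for both Nkx2-1 and Cebpa.

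For each regulator the 3 genes with the most similar profile over the 10 libraries were found among 13857 genes with a mean over 1 CPM, a description in which the best of so many is high by construction. Nkx2-1 was closest to Prss8 (r = 0.94), a membrane serine protease of epithelia, then to Pex10 and Gm13880. Cebpa was closest to Dbp (r = 0.95), a circadian leucine zipper factor, then to Msrb1 and Cand2. Foxa1 was followed by Tapt1 (r = 0.92), Adal and Eif5, and Foxa2 by Igsf9 (r = 0.95), Calml4 and Lman1l. Hnf4a ran with Zfp276 (r = 0.96), Zfp64 and 2700038G22Rik. Sox9 ran with Gkn3 (r = 0.95), a gastrokine that ranged from 1.16 to 28.9 CPM, and with Haus1 and Cpn1. Sox2 was closest to Ostm1 (r = 0.96), Lypla1 and Ehd4, Hmga2 to Ercc1 (r = 0.95), Card10 and Adprh, and Gata6 to Gm6472 (r = 0.94), Zfp791 and Jmjd7.

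A further list of 58 lung and tumour transcription factors, Nkx2-1 among them, showed where the 9 stand within their class. Of the 56 tested, 25 were higher and 31 lower in Glut1KO, with a median log2 fold change of -0.03, and 0 passed the threshold in limma. Klf4, a Kruppel-like factor of epithelial differentiation, was the one with the smallest p, at 218, 95.4, 181, 155 and 173 CPM in Control and 95.3, 79.3, 74.6, 95.7 and 75.0 CPM in Glut1KO (log2 fold change -0.93, SE 0.20, limma adjusted p = 0.314, DESeq2 adjusted p = 0.00219). Hes1, the Notch effector, was the one of the list whose groups did not overlap, at 82.3 to 113 CPM against 54.8 to 72.9 CPM (-0.50, SE 0.12, limma adjusted p = 0.36). That is 1 of 56, beside 1.85% of all genes with groups that did not overlap. Tfcp2l1, a Grainyhead-family factor, read 138 to 193 CPM in Control and 182 to 348 CPM in Glut1KO (0.58, SE 0.18, adjusted p = 0.451). With the female-labelled Glut1KO libraries alone the list had the same median, and Klf4 was at -0.94 (SE 0.24, adjusted p = 0.179), Hes1 at -0.55 (SE 0.14, adjusted p = 0.178) and Tfcp2l1 at 0.83 (SE 0.15, adjusted p = 0.0803). Beside these, 15 of 16 genes of the dissociation response were lower in Glut1KO, summing to 7190 to 9060 CPM in Control and 4480 to 7270 CPM in Glut1KO. The sum was 6470, 6990 and 7270 CPM in Glut1KO replicates 1 to 3 and 4990 and 4480 CPM in replicates 4 and 5. Of the 16 genes, 0 passed the threshold in limma and 7 had an unadjusted p under 0.05 and a lower mean, as 4.02% of all genes did. In 4 (Jun, Atf3, Dusp1 and Klf6) the groups did not overlap, all lower in Glut1KO, as in 1.06% of all genes. Klf4 is known as an early response gene too, and the part of this response in its value was not tested.

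**Figure D4:**
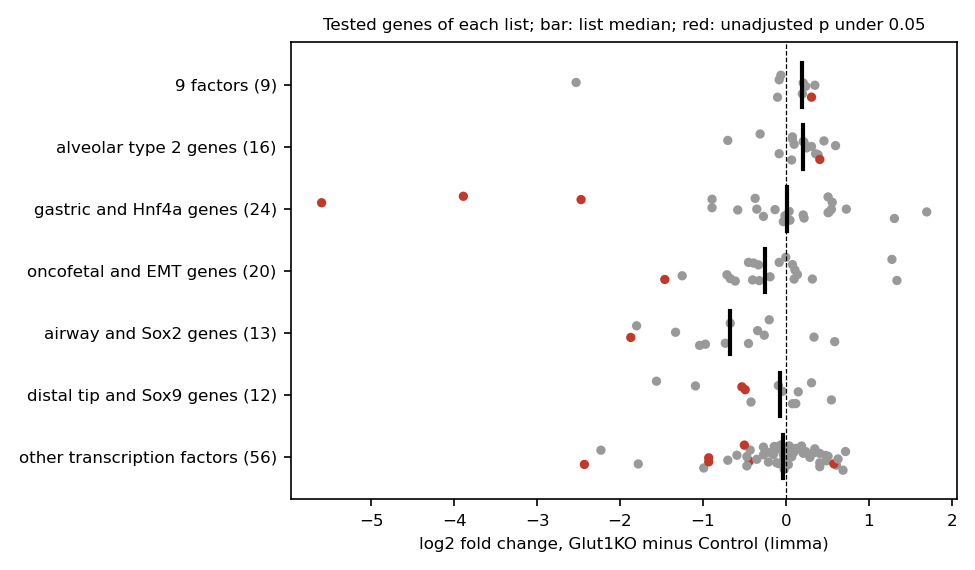
Log2 fold change (Glut1KO minus Control, limma) of every tested gene in the 9 factors and 6 further lists, with the number tested in brackets; a point is a gene, a black bar the list median, and red marks an unadjusted p under 0.05. The list medians lie between -0.67 for the airway genes and 0.21 for the alveolar type 2 genes.

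The neighbours of the regulators on the chromosome were checked because reads of overlapping genes can be assigned to the wrong one. Libraries were made with a stranded kit, but the strand setting of the counting was not stated. Gm26973, an antisense transcript across Nkx2-1, had 96 to 323 counts beside 5212 to 12355 of Nkx2-1, and 1010001N08Rik, on the opposite strand of Gata6, had 89 to 243 counts beside 2745 to 5139. Transcripts overlapping Hnf4a and Hmga2 had at most 5 and 4 counts. Of the genes near the 9 that were listed by name, Cebpg, beside Cebpa, had a log2 fold change of 0.21 (SE 0.13, limma adjusted p = 0.746), Mbip, beside Nkx2-1, of 0.28 (SE 0.20, adjusted p = 0.769) and Sox2ot, which overlaps Sox2, of 0.52 (SE 0.43, adjusted p = 0.793).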

How the data were processed

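Tumours of 10 libraries, 5 per group by title, were profiled as polyadenylated RNA (single-end reads). Per the study's methods the authors trimmed adapters with Cutadapt and aligned reads with HISAT2 to mm10. The submitters' processing notes name cutadapt 1.4.2 and featureCounts 1.4.4. The annotation release and the strand setting of the counting were not given in the sources used here. The deposited counts are raw reads per Ensembl gene, and the 10 single files equalled the columns of the annotated table. Positions, exon lengths and transcripts came from GENCODE M21 (GRCm38, the assembly mm10 names), in which 37693 of 39017 identifiers (96.6%) were found.

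Counts were filtered by edgeR 4.0.16 filterByExpr (minimum count 10, minimum total 15; 15922 genes), scaled by TMM and fitted by voom (prior count 0.5) and limma 3.58.1 in R 4.3.3, with no term but the group. The study used the same scheme but a TPM filter. Benjamini-Hochberg adjustment ran over all genes (threshold 0.05). DESeq2 1.42.0, edgeR's quasi-likelihood test and other settings were alternatives. CPM are TMM-scaled. Intervals rest on 5 libraries per group, and totals of 35.25 to 49.76 M counts per library limit only the lowest genes. Pairs were tested by permutation with 100000 resamples, or exactly at 8 libraries or fewer. Named genes are the 9 regulators, Slc2a1, the 3 of each list with the smallest limma p and any not overlapping between groups, the 3 most similar genes per regulator, and neighbours; other genes were picked after their values were seen. The regulators and lists were chosen with earlier results of these data known.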

Additional observations from a re-analysis of the deposited data

Results flagged for a closer look

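In 20 groups of 5 libraries (the 9 regulators and Slc2a1, Control and Glut1KO, in CPM) the highest or lowest library was compared with its nearest neighbour relative to the group's range, with Dixon's 95% critical value of 0.71. Chance gives about 1 in 20, and 2 groups exceeded it. Control replicate 3 stood far above the other Control libraries for Hmga2, at 152 CPM against 2.43 to 36.3 CPM. Its gap over the range was 0.774 in CPM but 0.347 in log2 CPM, the scale of the fold changes, where it did not exceed the critical value. Glut1KO replicate 3 stood far below the other Glut1KO libraries for Sox2, at 14.1 CPM against 32.0 to 36.7 CPM. Its gap over the range exceeded the value on both scales (0.793 in CPM, 0.857 in log2 CPM).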

How the results depend on the processing

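Across 22 alternatives per regulator (21 for Hmga2, which a mean above 20 TPM leaves out), 189 of 197 log2 fold changes kept their direction, and 0 passed the threshold. The 8 that changed sign were as follows: Foxa1 was 0.01 with the female-labelled Glut1KO libraries only and 0.02 with sample quality weights; Sox2 was -0.00 with the female-labelled libraries only and -0.03 without Control replicate 2; Hnf4a was 0.40 with sex as a covariate and with male libraries only, 0.08 without Control replicate 2 and 0.17 without Glut1KO replicate 2. The targeted gene Slc2a1 changed sign too, from -0.62 (SE 0.29, limma adjusted p = 0.658) in the main fit to 0.06 with sex as a covariate and with male libraries only. When each library was left out in turn, Foxa1 ranged from -0.19 to -0.01, Foxa2 from -0.12 to -0.02, Nkx2-1 from 0.22 to 0.45, Hnf4a from -0.28 to 0.17, Sox2 from -0.03 to 0.46, Sox9 from 0.01 to 0.45 and Hmga2 from -3.38 to -1.78. The count of genes past the threshold, 0 in limma, was 215 by DESeq2, 9 with the female-labelled Glut1KO libraries only, 3 with sex as a covariate, 2 with the libraries of a name number summed and 1 with male libraries only; it was 0 to 1 when each library was left out, with 1 gene without Control replicate 3. Of the 140 tested genes in the 6 lists DESeq2 called 9 (6.43%, beside 1.35% of all genes: Cdh17, Klf4, Gkn1, Krt15, Foxj1, Igf2bp2, Hes1, Tff3 and Pgc) and limma 0; DESeq2 also called 4 of 16 dissociation genes and 2 of 9 immune markers. The cause was not tested. The values of the lists for the female-labelled Glut1KO libraries against Control were a setting chosen after seeing the data. They come from the fit in which Glut1KO replicates 4 and 5 form a group. The setting with female-labelled libraries only leaves these replicates out of the fit. Leaving out each library was a setting also chosen after seeing the data. The genes given with an SE in the paragraphs on the 6 lists then kept their direction. Those moved by over 1.5 times toward 0 were Sftpb (0.23 without Glut1KO replicate 4), Pgc (1.10 without Glut1KO replicate 3), Plagl1 (-0.40 without Control replicate 2) and Scgb3a2 (-0.80 without Control replicate 5). Among the immune markers, Mrc1 turned to 0.19 without Control replicate 2. Lyz2 moved to -0.40 (without Control replicate 3), Cd68 to 0.11 (without Glut1KO replicate 3) and S100a8 to -0.16 (without Control replicate 5). Among the neighbours, Sox2ot moved to 0.27 (without Control replicate 5) and Mbip to 0.17 (without Control replicate 1). The count of pairs past the threshold, 2, was 2 with library totals, where Nkx2-1 and Cebpa took the place of Foxa2 and Hnf4a; it was 0 without the 2 libraries farthest from the median, 0 with group means taken away and, in settings chosen after seeing the data, 0 with the libraries of a name number averaged, 0 without Control replicates 1 and 3, and 0 to 3 when each library was left out. With the libraries of a name number averaged, a lone pair could not pass whatever its r, so the 0 of that setting was fixed by the number of points. Replicate numbers did not pair the libraries (correlations of deviations from -0.132 to 0.197), and 0 genes passed the threshold with the replicate block. Depth was lowest for Hmga2 in Glut1KO replicate 2, with 19 counts.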
